A study of Mus musculus with 6 samples.

Results

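AMPA receptors are the glutamate-gated channels that carry most fast excitatory transmission in the brain. The genes described here are the 4 that encode the pore-forming subunits (Gria1, Gria2, Gria3 and Gria4) and 3 that encode transmembrane AMPA receptor regulatory proteins, or TARPs (Cacng2, Cacng3 and Cacng8). The members were chosen by name: every group of short array probes (a probe set) whose platform annotation held exactly 1 symbol, and that symbol 1 of these 7. This gave 16 of the 45101 probe sets on the array, of which 15 were bright enough to be tested. The genes were picked with earlier results of these data known.

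The tissue was medial prefrontal cortex, a frontal area involved in suppressing learned fear. It came from 6 males of the 129S1/SvImJ inbred line, 8 to 10 weeks old. The 3 ZnR mice (mice 3, 7 and 11) were on a diet labelled ZnR and described as a zinc diet, with no composition in the sources used here. The 3 control mice (mice 1, 5 and 9) were on the control diet. All 6 mice had been trained in fear extinction, where the cue comes without its feared outcome, and tissue from both hemispheres was taken 2 h later. No animals were pooled, and each mouse gave 1 Affymetrix Mouse430_2 array. The comparison asks which transcripts of this receptor differed between the diets. With 6 arrays the precision is limited, and p-values rest on the spread between mice.

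An AMPA receptor is a tetramer of GluA1 to GluA4 subunits. GluA2, whose RNA is edited at the pore, makes the channel nearly impermeable to calcium, and GluA1 and GluA3 each pair with it in cortical pyramidal neurons. TARPs and other auxiliary subunits bind the tetramer, carry it to the synapse and slow its closing, and secreted proteins hold it under the transmitter release site. Moving receptors into and out of synapses is a known step of fear learning and extinction.

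Gria2 has a well-known promoter element, RE1, at which the repressor REST brings histone deacetylases to neuronal genes. The series title names histone deacetylase inhibition, so that promoter is shown. RefSeq promoter entries (GRCm38.p6) were matched for 5 of the 7 genes: Gria2, Gria4, Cacng2, Cacng3 and Cacng8. The 250 bases before the Gria2 start, chr3:80802836-80803085 on the minus strand, read 5′ to 3′ with the RE1 match in capitals:
Gria2: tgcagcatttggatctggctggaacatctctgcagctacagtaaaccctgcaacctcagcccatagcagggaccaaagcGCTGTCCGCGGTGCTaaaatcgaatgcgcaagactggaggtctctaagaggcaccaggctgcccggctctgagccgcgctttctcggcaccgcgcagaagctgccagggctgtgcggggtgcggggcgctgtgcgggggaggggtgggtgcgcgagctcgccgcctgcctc
RE1 was searched on both strands as its half-sites AGCACC (in 13.4% of windows) and GGACAGC (5.28%) with 2 bases between them, and here it lies on the opposite strand. The match starts 171 bases before the annotated start and overlaps no other motif searched. The spaced pair was found in 9 of 32851 promoter windows of the same length (0.0274%), and among the 5 members only in that of Gria2. The cyclic AMP element TGACGTCA (1.55% of windows) and the GC box GGGCGG (32.7%) had no match in any of the 5, and the E-box CANNTG (66.2%) had 1 match in each except Cacng8. A match is a description of letters and not a measured site.

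The pore subunits and TARPs gave no call. None of the 15 tested probe sets passed the threshold in either direction (limma, adjusted p from 0.061 to 0.9996, Benjamini-Hochberg over every probe set tested). Over all 25381 probe sets tested, 373 or 1.47% passed, 0.461% higher and 1.01% lower in ZnR mice. At an unadjusted p under 0.05 the members gave 3 of 15, both Gria3 probe sets and 1 of Cacng2, where all probe sets gave 4303 or 17%. Of the 15, 13 had a lower mean and 2 a higher mean in ZnR mice, against 11770 lower and 13611 higher over all probe sets tested. Probe sets of 1 gene are not independent, some of the 13 lay near 0 (Cacng3 at -0.00036), and the directions were not tested. Their median difference was -0.11 on the log2 scale, against 0.02 over all probe sets tested. The diets did not overlap in 4 of the 15 (26.7%), which is close to the share over all probe sets (6021 or 23.7%). In 3 of the 4 the ZnR mice were lower (10.6% of all probe sets) and in 1 higher (13.1%). The 95% intervals of the differences reached from -0.75 at the lowest to 0.35 at the highest. No tested probe set had an interval that included a 2-fold change of the array value. Array values are compressed at low levels, as for Cacng8, and may be so at the highest brightness. For such probe sets a 2-fold change of RNA is not excluded.

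Gria3, which encodes the GluA3 subunit, came nearest to the threshold. Probe set 1420563_at measured 10.85, 10.76 and 10.63 log2 units in ZnR mice 3, 7 and 11, against 11.27, 11.15 and 11.19 in control mice 1, 5 and 9. All 3 ZnR mice lay below all 3 control mice. The group means were 10.75 ± 0.11 in ZnR mice and 11.20 ± 0.06 in control mice (SD, n = 3 each), a difference of -0.46 ± 0.09 SE (limma adjusted p = 0.061) that equals a 1.37-fold lower level in ZnR mice.

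The second Gria3 probe set, 1434728_at, measured 10.98, 11.47 and 11.34 in the ZnR mice, against 11.55, 11.58 and 11.86 in the control mice. Here too the diets did not overlap, though ZnR mouse 7 and control mouse 1 lay close together. The difference was -0.40 ± 0.15 SE (limma adjusted p = 0.231). It leaned on ZnR mouse 3 more than the first probe set did, with -0.26 without that mouse, where 1420563_at gave -0.51. Over the 6 fits without 1 mouse it ran from -0.50 to -0.26. Markers of cortical excitatory neurons, which express Gria3, were lower in the same ZnR mice by a list mean of -0.91. Striatal markers were higher in them by a list mean of 0.53, and choroid plexus and ependymal markers by 1.07. In bulk tissue, fewer cells of a type, a different mix of regions in the piece taken and less RNA per cell cannot be told apart.

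Gria3 did not pass in the design used, and in some others only probe set 1420563_at passed. The brighter 1434728_at passed in 0 of 9 other settings (limma adjusted p from 0.116 to 0.408) and in 0 of the 6 fits without 1 mouse. For 1420563_at the adjusted p was 0.037 among brighter probe sets alone (log2 above 6), 0.0107 with a trend in the variance prior, 0.0203 with array weights and 0.0474 with a block for the arrays of low 18S ribosomal control signal, 1 of each diet (ZnR mouse 3 and control mouse 1). It was 0.119 to 0.175 when any 1 mouse was left out. Within that low-18S pair the difference was -0.42, against -0.48 for the 4 others.

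Gria1 encodes GluA1, the subunit best known for entering synapses when they strengthen. It was the only member gene with higher means in ZnR mice. Probe set 1435239_at measured 11.51, 11.48 and 11.49 in ZnR mice, against 11.40, 11.32 and 11.47 in control mice. The ZnR mice sat above the controls without overlap, by a narrow margin at control mouse 9. The difference was 0.10 ± 0.08 SE (limma adjusted p = 0.604), within 2 standard errors of 0. The other probe set, 1448972_at, measured 11.89, 11.93 and 11.91 in ZnR mice, against 11.77, 11.75 and 11.94 in control mice. Control mouse 9 was the highest of all 6 there, so the diets overlapped, and the difference of 0.09 ± 0.09 SE did not pass (limma adjusted p = 0.667). The ZnR mice were close to each other on both probe sets, with SDs of 0.012 and 0.017, against 0.077 and 0.10 in control mice.

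Gria2, which encodes the GluA2 subunit, differed by 0.15 log2 units or less on each of its 3 probe sets. The brightest, 1421970_a_at, measured 12.55, 12.57 and 12.58 in ZnR mice, against 12.55, 12.61 and 12.60 in control mice. All 6 values lay within a narrow band, and the difference was -0.02 ± 0.08 SE (limma adjusted p = 0.943), with a 95% interval from -0.19 to 0.16. A probe set can be near saturation at such brightness, which was not tested. The other 2 gave -0.15 ± 0.11 SE (1434146_at, limma adjusted p = 0.545) and -0.11 ± 0.15 SE (1453098_at, 0.760). Both overlapped between the diets, and on both ZnR mouse 3 was lowest and control mouse 9 highest. Without control mouse 9 the 1434146_at difference was -0.05.

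Gria4 encodes GluA4, which in adult cortex is best known from fast-spiking interneurons. Its 3 probe sets had lower means in ZnR mice, all overlapping and none past the test. The brightest, 1440891_at, measured 9.33, 9.79 and 9.62 in ZnR mice, against 9.70, 9.71 and 10.10 in control mice, a difference of -0.26 ± 0.16 SE (limma adjusted p = 0.463). Leaving out ZnR mouse 3 gave -0.13, and leaving out control mouse 9 gave -0.12. Only ZnR mouse 7 lay above any control mouse. Probe set 1435722_at gave -0.05 ± 0.09 SE (0.829). The dimmest, 1421351_at, lay between 4.14 and 4.89 in all mice, near the level filter of 4, and gave -0.28 ± 0.17 SE (0.457). The interneuron marker Pvalb, which marks fast-spiking cells, measured -0.70 ± 0.28 SE (limma adjusted p = 0.255) and overlapped between the diets. The whole list of 7 interneuron markers had a mean difference of -0.06 ± 0.10 (SE over mice), with 3 means lower and 4 higher in ZnR mice. Of those 7 markers 1 fell, and their list mean was 10.06 to 10.22 in ZnR mice and 10.02 to 10.31 in control mice.

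Cacng2 encodes stargazin, the founding TARP, which ties AMPA receptors to the scaffold protein PSD-95. Probe set 1440210_at measured 7.97, 8.25 and 8.10 in ZnR mice, against 8.28, 8.39 and 8.66 in control mice. The diets did not overlap, with ZnR mouse 7 just below control mouse 1, and the difference of -0.34 ± 0.13 SE did not pass (limma adjusted p = 0.233). Probe set 1420596_at measured 7.08, 7.15 and 7.45 in ZnR mice, against 7.29, 7.55 and 7.55 in control mice, a difference of -0.24 ± 0.13 SE (limma adjusted p = 0.406). There ZnR mouse 11 lay above control mouse 1. A further dim probe set, 1453363_at, gave -0.01 ± 0.13 SE (0.974), so the 3 disagree in size.

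Cacng3 encodes the TARP γ-3, found mainly in forebrain. Its probe set 1450520_at measured 8.54, 7.98 and 8.32 in ZnR mice, against 8.43, 8.17 and 8.25 in control mice. The ZnR mice held both the highest and the lowest value, and the means were equal to the second decimal (8.28 ± 0.28 in ZnR mice and 8.28 ± 0.13 in control mice, SD, n = 3 each). The 95% interval of the difference ran from -0.35 to 0.35 (limma adjusted p = 0.9996).

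Cacng8 encodes γ-8, the main TARP of hippocampus and much of cortex. The array read it poorly. Probe set 1459579_at measured 4.36, 4.41 and 4.32 in ZnR mice, against 4.29, 4.42 and 4.55 in control mice, all just above the level filter, with a difference of -0.06 ± 0.09 SE (limma adjusted p = 0.801). Probe set 1451864_at did not pass the filter and lay at 3.72 to 3.83 in ZnR mice and 3.61 to 4.20 in control mice. Values this low are compressed by the background correction, so a change of Cacng8 could be understated.

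**Figure D1:**
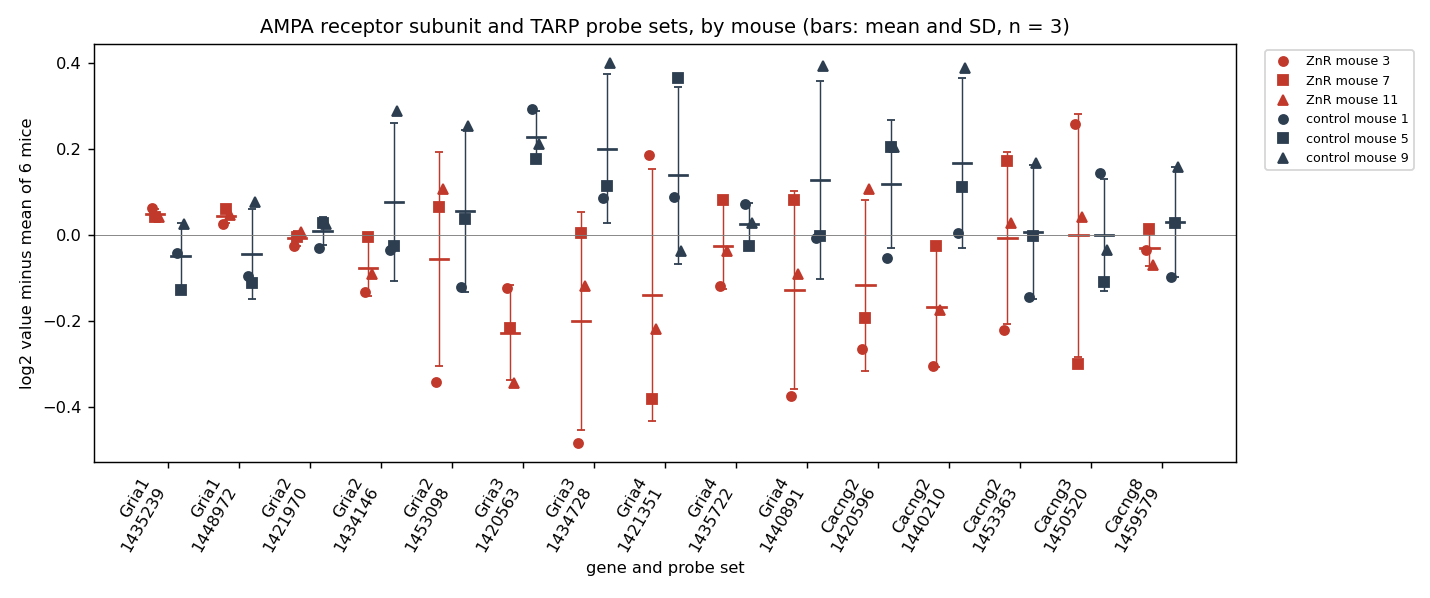
Log2 value of each of the 15 tested probe sets minus its mean over the 6 mice (y axis), by gene and probe set (x axis), with ZnR mice left in red and control mice right in dark blue; bars are means and SD (n = 3 each). The ZnR mice lie below the control mice without overlap on both Gria3 probe sets and on Cacng2 1440210_at, and above them on Gria1 1435239_at.

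The members varied between mice in a shared way. ZnR mouse 3 was the lowest of the 6 on 8 of the 15 probe sets (53.3%), against 16.2% of all probe sets tested. Control mouse 9 was the highest on 7 of the 15 (46.7%), against 19.8% of all probe sets. Both held at once on 5 probe sets, 2 of Gria2 and 1 each of Gria3, Gria4 and Cacng2 (33.3%, against 7.48% of all probe sets). Probe sets of one gene and neighbouring transcripts of one array are not independent, so these shares describe the mice and are not tested. The same 2 mice had the lowest and highest mean over 3 control probe sets for 18S ribosomal RNA, with 8.44 in ZnR mouse 3 and 12.4 in control mouse 9, against 9.09 to 11.5 in the other 4 mice. The part of that signal in the members' values was not tested. The block above set apart only ZnR mouse 3 and control mouse 1, and not control mouse 9.

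The balance between members was compared within each array, since the difference of 2 genes on 1 array shows whether they changed unequally. With 3 mice against 3 the exact permutation test cannot go below 0.1, so none of the 6 pairs compared could pass. Gria3 minus Gria2 was -1.57, -1.11 and -1.24 in ZnR mice, against -0.998, -1.03 and -0.74 in control mice, on a scale that also holds the probes' own brightness. It was lower in all 3 ZnR mice than in any control mouse (difference -0.38 ± 0.17 SE over mice, 2-sided exact permutation p = 0.1, and 0.3 adjusted over the 6 pairs). Gria1 minus Gria2 differed by 0.10 ± 0.06 (exact permutation p = 0.2) and Gria4 minus Gria2 by -0.24 ± 0.18 (exact permutation p = 0.3). In the pairs with Gria2, probe set 1421970_a_at stood for Gria2. It can be near saturation, which was not tested, so a change of Gria2 could be understated. Among TARPs, Cacng3 minus Cacng2 differed by 0.34 ± 0.29 (exact permutation p = 0.3). Cacng8 minus Cacng2 differed by 0.28 ± 0.08 (exact permutation p = 0.1) and Cacng8 minus Cacng3 by -0.06 ± 0.23 (exact permutation p = 0.9). Cacng8 sits at the floor, so these 2 pairs cannot show an unequal change. With each gene as the mean of its tested probe sets, Gria1 minus Gria2 was 0.19 (exact permutation p = 0.1), Gria4 minus Gria2 -0.10 (p = 0.2), Cacng3 minus Cacng2 0.20 (p = 0.6) and Cacng8 minus Cacng2 0.14 (p = 0.2). Gria3 minus Gria2 was -0.33 (exact permutation p = 0.1) on that scale.

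Genes that act on AMPA receptors were followed in 6 lists, which were drawn up with earlier results of these data known. The brightest tested probe set stood for each gene. Of 61 genes, 57 were measured; 4 fell, 53 did not pass and none rose. Among the 11749 genes with such a probe set 226 or 1.92% passed, 0.655% higher and 1.27% lower. The median difference of the 57 was -0.08, against 0.03 over all genes. Because the lists were not chosen blind to these data, their counts and shares only describe and were not tested. The 4 that fell were Cnih3 among the auxiliary subunits and Olfm1, Olfm2 and Nptx1 among the extracellular organisers.

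Among 11 measured auxiliary subunits other than the members, 1 fell and 10 did not pass. Cnih3 encodes a cornichon protein, an auxiliary subunit that slows closing of the channel and helps its export to the surface. It measured 7.71, 7.78 and 7.62 in ZnR mice, against 8.55, 8.57 and 8.61 in control mice. The diets were far apart compared with the spread within each (7.70 ± 0.08 in ZnR mice and 8.58 ± 0.03 in control mice, SD, n = 3 each). The ZnR level was 1.83-fold lower (-0.87 ± 0.08 SE on the log2 scale, limma adjusted p = 0.0132). Leaving out ZnR mouse 3, ZnR mouse 11 or control mouse 5 ended the call, with adjusted p of 0.0688, 0.0635 and 0.0811, while the difference stayed between -0.91 and -0.83. Its paralog Cnih2 measured 0.09 ± 0.08 SE (limma adjusted p = 0.643); the difference between the paralogs was not tested.

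Because Cnih3 was the one auxiliary subunit that fell, its promoter is shown in the same way, chr1:181352378-181352627 on the plus strand of GRCm38.p6, with the GC box in capitals:
Cnih3: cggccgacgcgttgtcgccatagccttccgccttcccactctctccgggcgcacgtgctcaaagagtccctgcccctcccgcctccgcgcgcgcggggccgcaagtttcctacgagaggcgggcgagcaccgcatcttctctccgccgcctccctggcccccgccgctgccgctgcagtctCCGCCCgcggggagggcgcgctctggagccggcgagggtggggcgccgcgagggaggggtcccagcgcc
It holds 1 GC box, 1 E-box and no RE1 match, in a window of 76.0% G and C, against 64.8% in that of Gria2.

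Cacng4 encodes γ-4, a further TARP, and its 2 probe sets differed in the test. The brighter, which stands for the gene above, measured 8.48, 8.35 and 8.72 in ZnR mice, against 8.05, 7.94 and 7.87 in control mice (0.56 ± 0.12 SE, limma adjusted p = 0.0631). The other, 1455230_at, measured 8.56, 8.36 and 8.35 in ZnR mice, against 7.74, 7.62 and 7.53 in control mice, and rose 1.73-fold (0.79 ± 0.10 SE, limma adjusted p = 0.0214). No ZnR mouse overlapped a control mouse on either. The call of 1455230_at held without control mouse 1 (adjusted p = 0.0402) and was lost without any 1 of the other 5 mice (0.0546 to 0.0983). This TARP is known from oligodendrocyte precursors and striatum as well as cortical neurons. All 6 measured precursor markers had higher means in ZnR mice, with a list mean of 7.90 to 8.12 in ZnR mice and 7.62 to 7.69 in control mice. All 9 measured striatal markers had higher means too, with a list mean of 11.17 to 11.40 in ZnR mice and 10.50 to 10.95 in control mice. Their part in the Cacng4 value was not tested. Shisa6, which encodes an auxiliary subunit that holds receptors at the synapse, measured 0.43 ± 0.10 SE (limma adjusted p = 0.081). Its other probe set, 1455512_at, overlapped between the diets and gave 0.55 ± 0.40 SE (0.546).

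Among the extracellular organisers, 3 of 8 measured genes fell and 5 did not pass. Olfm1 and Olfm2 encode noelins, secreted proteins that bind AMPA receptor complexes. Olfm2 measured 6.90, 6.78 and 6.998 in ZnR mice, against 7.88, 7.85 and 7.70 in control mice, and was 1.89-fold lower in ZnR mice (-0.92 ± 0.10 SE, limma adjusted p = 0.017). Olfm1 measured 11.999, 11.91 and 11.91 in ZnR mice, against 12.59, 12.54 and 12.51 in control mice, and was 1.52-fold lower (-0.60 ± 0.08 SE, limma adjusted p = 0.0235). On neither gene did a ZnR mouse reach a control mouse. The other 2 probe sets of Olfm1 gave -0.71 ± 0.08 SE (limma adjusted p = 0.020) and -0.67 ± 0.13 SE (0.0546). Olfm3 measured -0.11 ± 0.15 SE (0.753).

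Nptx1 encodes neuronal pentraxin 1, which is released by axons and clusters AMPA receptors. It measured 10.86, 10.98 and 10.90 in ZnR mice, against 11.60, 11.57 and 11.33 in control mice, and was 1.51-fold lower in ZnR mice (-0.59 ± 0.10 SE, limma adjusted p = 0.0431). Its other probe set gave -0.67 ± 0.16 SE (0.0934), with control mouse 9 close to the ZnR mice. The related activity-regulated pentraxin gene Nptx2 measured -0.58 ± 0.20 SE (limma adjusted p = 0.193).

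Leaving out ZnR mouse 3, ZnR mouse 11 or control mouse 5 ended the Olfm2 call too, with limma adjusted p of 0.0751, 0.0622 and 0.0815. The brightest probe set of Olfm1 did not pass when any 1 mouse was left out (0.0546 to 0.103), nor did that of Nptx1 (0.0546 to 0.157). The Olfm1 probe set 1426562_a_at still passed without control mouse 1 (0.0412) or ZnR mouse 7 (0.0428), and did not without any 1 of the other 4 mice (0.0546 to 0.0941). Without the low-18S pair none of the 4 genes passed, with differences of -0.89 for Cnih3, -0.89 for Olfm2, -0.61 for Olfm1 and -0.51 for Nptx1. Within that pair Cnih3 differed by -0.84, Olfm2 by -0.97, Olfm1 by -0.59 and Nptx1 by -0.74.

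**Figure D2:**
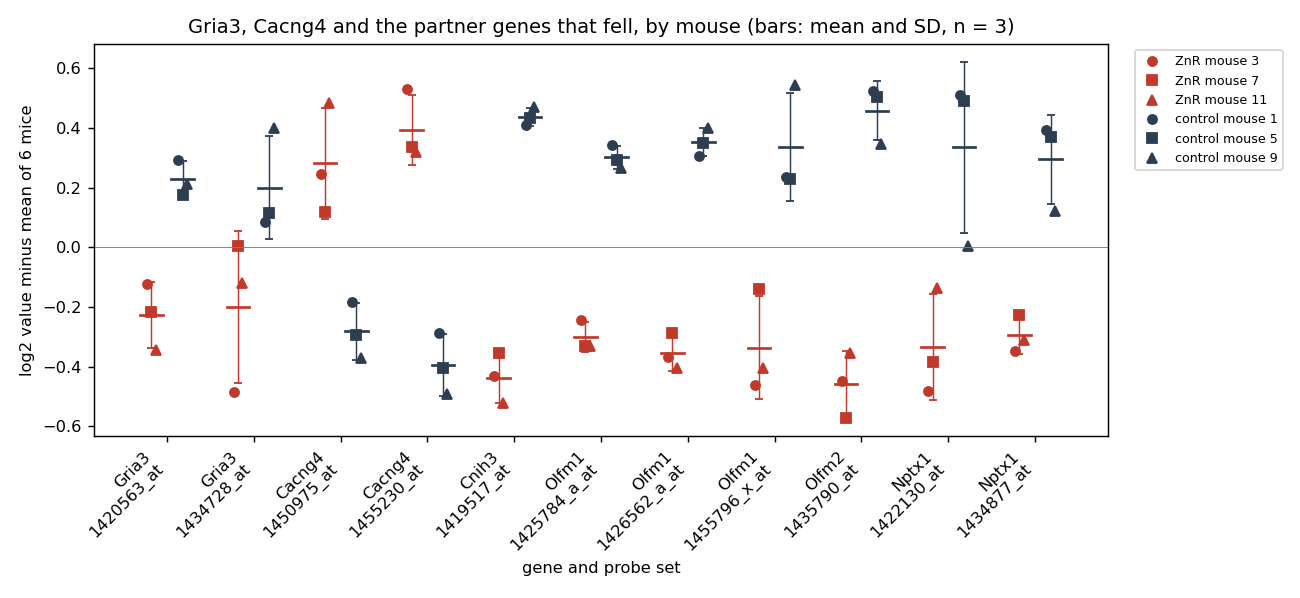
Log2 value minus the mean of the 6 mice (y axis) for all probe sets of Gria3, Cacng4, Cnih3, Olfm1, Olfm2 and Nptx1 (x axis), ZnR mice left in red and control mice right in dark blue, with means and SD (n = 3 each). No ZnR mouse overlaps a control mouse on any of these probe sets, with Cacng4 higher and the others lower in ZnR mice.

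The other 4 lists held no call. None of the 6 measured assembly and editing genes passed, and 5 had lower means, led by Porcn (-0.28 ± 0.08 SE, limma adjusted p = 0.142) and Frrs1l, whose product builds the receptor in the endoplasmic reticulum (-0.23 ± 0.08 SE, 0.201). Abhd6, whose product limits surface delivery of the receptor, measured -0.19 ± 0.08 SE (0.278). Adarb1, which encodes the enzyme that edits the Gria2 pore codon, measured -0.08 ± 0.10 SE (0.728). None of the 12 scaffold and delivery genes passed. Dlg4, which encodes PSD-95, measured -0.14 ± 0.13 SE (0.644), Iqsec2 measured -0.35 ± 0.11 SE (0.170) and Iqsec1 -0.21 ± 0.09 SE (0.314), both genes for exchange factors that act on Arf GTPases. Pick1, whose product holds GluA2 inside the cell, measured 0.20 ± 0.09 SE (0.310).

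None of the 11 kinase and phosphatase genes passed. Ptpn5 encodes STEP, a phosphatase that favours receptor removal and is most abundant in striatum. It measured 0.54 ± 0.11 SE (limma adjusted p = 0.0647) with the striatal markers higher in the same mice. Its other probe sets, 1425130_a_at and 1425131_at, overlapped between the diets and gave 0.46 ± 0.18 SE (0.258) and 0.51 ± 0.17 SE (0.193). Camk2a, the kinase gene of synaptic strengthening, measured -0.18 ± 0.08 SE (0.289) on its brightest probe set. Its 4 other tested probe sets gave larger differences, from -0.23 to -0.73, all without overlap, and the largest was -0.73 ± 0.15 SE (1452453_a_at, limma adjusted p = 0.0595). The calcineurin gene Ppp3cb measured -0.13 ± 0.08 SE (0.468) on its brightest probe set. Its other tested probe sets gave -0.09, -0.24 and, in the other direction, 0.14 (1433835_at), and none passed. None of the 9 endocytosis genes passed. The endophilin gene Sh3gl2 measured -0.33 ± 0.10 SE (0.141), and on its 2 other probe sets -0.41 (0.0741) and -0.40 (0.268). Its paralog Sh3gl3 measured 0.35 ± 0.11 SE (0.155) and the dynamin gene Dnm3 0.30 ± 0.08 SE (0.117). Other probe sets of Dnm3 ran from 0.12 ± 0.09 SE (1436875_at, limma adjusted p = 0.559), where the diets overlapped, to 0.40 ± 0.13 SE (1425403_at, 0.174). Arc, whose product drives receptor removal after activity, measured -0.53 ± 0.63 SE (0.724), the widest error of the genes named here.

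**Figure D3:**
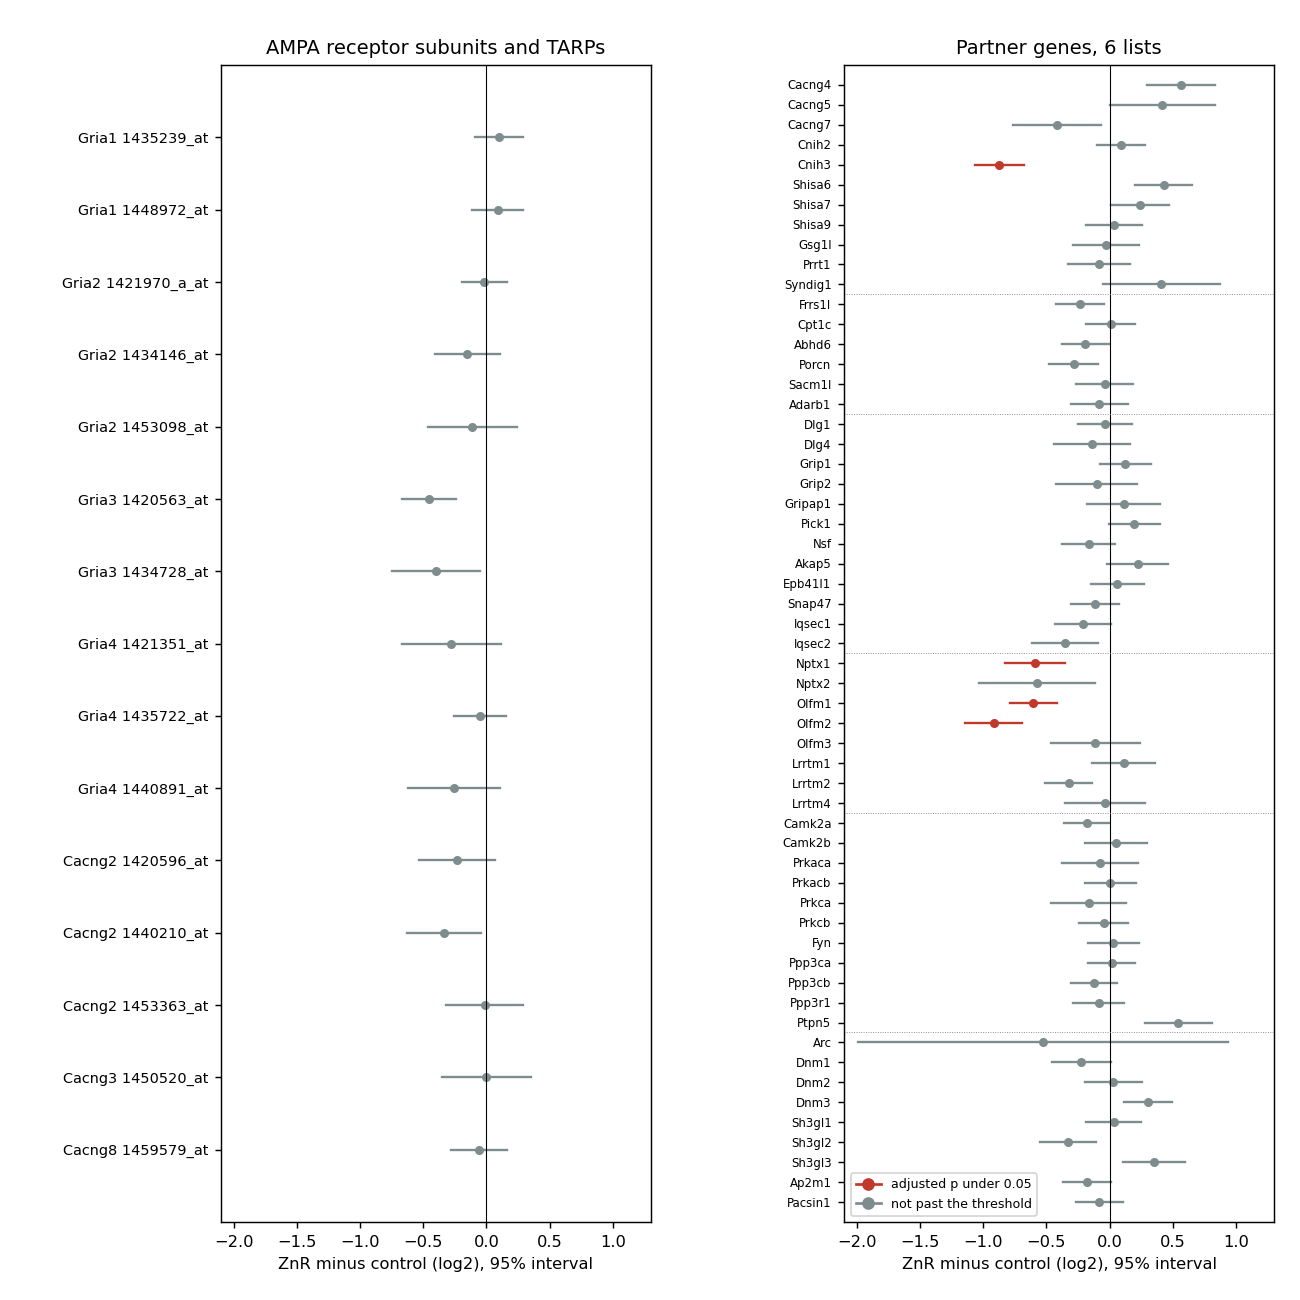
ZnR minus control difference on the log2 scale (x axis) with its 95% interval, for the 15 tested probe sets of the members (left, y axis gene and probe set) and for the 57 measured partner genes in their 6 lists divided by dotted lines (right, y axis gene). Red marks adjusted p under 0.05 and grey the rest; no member is red, and Cnih3, Nptx1, Olfm1 and Olfm2 are the red partner genes.

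Cell type markers were read beside these values. Of 7 cortical excitatory neuron markers 6 were measured, all with lower means in ZnR mice, and 5 fell and 1 did not pass. The list mean was 8.04 to 8.24 in ZnR mice and 9.04 to 9.16 in control mice, without overlap (difference -0.91 ± 0.08, SE over mice). Choroid plexus and ependymal markers had a list mean of 5.65 to 5.91 in ZnR mice and 4.22 to 5.14 in control mice, and 2 of 6 rose (Clic6 and Tmem212). Ttr overlapped between the diets (limma adjusted p = 0.529). Several markers of this list lay near or below the level filter in some mice. Control mouse 1 had the lowest list mean, at -1.05 from the mean of the 6 mice. Astrocyte markers had a list mean of 11.16 to 11.23 in ZnR mice and 10.91 to 10.98 in control mice, and 1 of 7 rose. Of the 9 striatal markers 2 rose. The microglial, interneuron, oligodendrocyte, endothelial and leptomeningeal list means overlapped between the diets. Log2 values have no 0, but 4 markers lay below the level filter: Folr1, Col1a1, Lum and Slc6a13. For the falls of Cnih3, Olfm1, Olfm2 and Nptx1 and the Gria3 difference, the part of cell make-up or dissection borders was not tested.

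**Figure D4:**
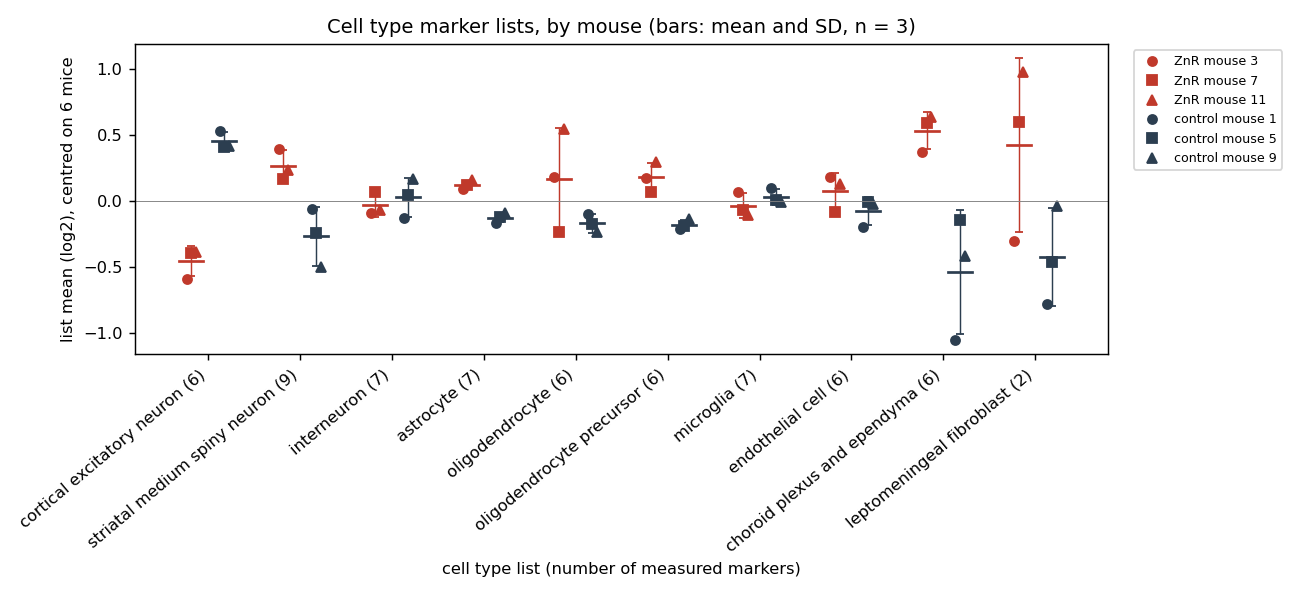
Mean log2 value of each cell type marker list, centred on the 6 mice (y axis), by list with the number of measured markers (x axis), ZnR mice left in red and control mice right in dark blue, with means and SD (n = 3 each). The excitatory neuron list is lower in all ZnR mice, with a difference of -0.91, and the striatal, astrocyte, oligodendrocyte precursor and choroid plexus and ependymal lists are higher in all ZnR mice.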

How the data were processed

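Total RNA (500 ng per mouse) was labelled with the Affymetrix 3′ IVT Express kit, per the labels' protocols. The authors deposited log2 expression values, 1 column per mouse, all of which were used; the submitters' processing notes name R 2.15.1 and GCRMA 2.28.0. GCRMA corrects background, normalizes between arrays and summarises probes, so differences in total RNA cannot be seen and low values are compressed.

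Of 45101 probe sets, 64 array controls were left out and 25381 were kept, with a log2 value above 4 on at least 3 arrays. The diets were compared with limma 3.58.1 under R 4.3.3 (lmFit, eBayes, 2-sided, no covariate). P-values were adjusted by Benjamini-Hochberg over the kept probe sets, with 0.05 as the threshold. Errors of differences are moderated standard errors. Folds are 2 raised to the log2 difference. Pairs of genes were compared by exact permutation in scipy 1.17.1. Named genes were the 7 members and, from each partner list, those past the threshold and the 3 with the smallest p; others are named as paralogs or for their role and were chosen after their values were seen. Members and lists were chosen with earlier results of these data known. Promoters and names came from RefSeq (GRCm38.p6). On simulated data with the real spread, drawn independently for each probe set, limma recovered 0 of 50 probe sets changed by 0.25 on the log2 scale. It recovered 8 of 50 changed by 0.5, 38 of 50 changed by 1 and 47 of 50 changed by 2, with 2 false calls among 25181. Only the 50 probe sets at each size were changed among 25381 simulated, and recovery after adjustment depends on the share that changes. Real probe sets can also vary together between mice. For these reasons the rates need not hold for the real arrays. Mouse numbers differ between the diets, the labels name no pairs, and no pairing was used. Alternatives covered the level filter, normalization, variance prior (statmod 1.5.0), array weights, low-18S arrays, the unit counted and each mouse left out.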

Additional observations from a re-analysis of the deposited data

How the results depend on the processing

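The count of member probe sets past the threshold was 0 in the design used. It was 1, each time Gria3 1420563_at, with the level filter at 6, with a trend in the variance prior, with array weights and with a block for the low-18S arrays. It was 0 in every fit that left out 1 mouse. The partner genes past the threshold numbered 4, and 7 with 1 probe set per gene, 12 with array weights, 9 with a variance trend, 0 without the low-18S pair, and 0 to 2 when 1 mouse was left out. Over all probe sets the 373 became 916 with a variance trend, 2003 with array weights, 1 without the low-18S pair, and 1 to 109 when 1 mouse was left out. The cause of these shifts was not tested, but every fit without a mouse has fewer samples. Among members and pairs, directions turned only for differences smaller than their SE. Without the low-18S pair Gria4 1435722_at gave 0.0209 and Cacng2 1453363_at gave 0.0171, and with array weights Cacng3 gave 0.10. When 1 mouse was left out, Gria2 1453098_at ran from -0.20 to 0.0311, Cacng2 1453363_at from -0.10 to 0.0933, Cacng3 from -0.13 to 0.15 and Cacng8 from -0.12 to 0.0049. In the same fits Cacng8 minus Cacng3 ran from -0.23 to 0.0727, Gria1 minus Gria2 from 0.06 to 0.16, Gria3 minus Gria2 from -0.48 to -0.25, Gria4 minus Gria2 from -0.34 to -0.12, Cacng3 minus Cacng2 from 0.14 to 0.56 and Cacng8 minus Cacng2 from 0.21 to 0.33. No paired analysis was run, because the labels name no pairs of mice. Mouse numbers alternate between the diets, and a pairing of neighbouring numbers was not tested. Signal near the floor limits both Cacng8 probe sets and Gria4 1421351_at.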

Other observations

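For each member, the 2 genes whose values over the 6 arrays were most like it were found by Pearson's r among 11748 other genes. The 6 arrays share the diet difference and many candidates were searched, so the values only describe. Gria3 (probe set 1434728_at) was closest to Rasal2 (r = 0.997) and Slc25a16 (0.996), Gria4 to Cdh2 (0.996) and Mob2 (0.994), and Cacng2 to Glrb (0.997) and Fgf12 (0.992). Gria1 was closest to Abca9 (0.991) and Zfp867 (0.985), Gria2 to Rhpn2 (0.985) and Vapa (0.980), Cacng3 to Cacnb1 (0.976) and Got1 (0.973), and Cacng8 to Bpnt1 (0.997) and Ocrl (0.984). None of these 14 genes passed the threshold for a diet difference (limma adjusted p from 0.216 to 0.992). Between 64 and 283 genes had r above 0.9 with a given member.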
